A study of Homo sapiens with 40 samples.

Results

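Retinoid metabolism was followed through 9 genes, CYP26A1, CYP26B1, DHRS3, DHRS9, RDH10, RDH16, LRAT, RARB and STRA6, which were taken by gene name from the 56568 gene names of the deposited tables, with the transcripts of each gene summed. HepaRG is a human hepatic line that differentiates into a mixture of hepatocyte-like cells and primitive biliary cells. The cultures were exposed from day 8 to day 14, in medium with serum and DMSO that was common to all groups, to the solvent alone, to PCB 126 at 100 pM, 10 nM or 1 µM, to glyphosate at 10 µg/L, 1 mg/L or 0.1 g/L, or to the glyphosate-based herbicide Roundup (Grand Travaux +) at 10 µg/L. Each of the 8 groups had 5 RNA-seq libraries, and the PCB 126 groups and the herbicide groups share 1 set of 5 control libraries. PCB 126, a polychlorinated biphenyl with dioxin-like action, is a ligand of the aryl hydrocarbon receptor. All cells came from the same line, and the labels do not say whether the libraries of a group came from separate cultures, so the p-values measure only the spread between these libraries.

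Vitamin A (retinol) circulates bound to a carrier protein, is stored in the liver as retinyl esters and is activated in a pair of oxidations, first to retinal and then to retinoic acid. Retinoic acid binds nuclear receptors that switch on genes, some of which remove retinoic acid again. Loss of hepatic vitamin A is a well-known effect of dioxin-like compounds in animals. In a bulk culture, fewer cells of a type and less RNA per cell cannot be told apart.

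The unit was FPKM, fragments scaled to transcript length and to the mapped fragments of the library, which allows levels to be set side by side between genes. The FPKM sum per library ranged from 255292 to 513059. The paper gives a range of reads per sample, but the FPKM values come without read counts per gene, so no counting interval was given. In 9 libraries more than 30% of the read pairs aligned to several places according to the alignment summary, which does not cover 2 of the other libraries. These were 1 control library (replicate 5), 2 at 10 nM (replicates 3 and 5), 2 at 1 µM (replicates 1 and 5), 1 at 10 µg/L glyphosate (replicate 5), 1 at 0.1 g/L glyphosate (replicate 2) and 2 of Roundup (replicates 4 and 5). Their FPKM sums were 255292 to 332974, against 311488 to 513059 in the other 31. As a check of the labels, CYP1A1, the best-known target of the aryl hydrocarbon receptor, was listed at 7.69, 3.76, 0.175, 0 and 0 FPKM in the control libraries and at 85.2, 251.1, 214.5, 388.6 and 234.4 FPKM at 1 µM PCB 126. At 100 pM it measured 70.9, 36.4, 3.21, 1.09 and 319.3 FPKM, so that replicates 3 and 4 lay within the control range. The 10 nM libraries measured 376.6, 348.9, 92.1, 227.8 and 292.4 FPKM. CYP1A1 was at most 6.48 FPKM in the herbicide libraries. The hepatocyte markers ALB, APOA1, SERPINA1, HNF4A, CYP3A4 and TF summed to between 5371 and 24104 FPKM in a library, whereas the 4 endothelial and macrophage markers summed to at most 6.41 FPKM.

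RARB and CYP26A1 are known to respond to retinoic acid through a DR5 element, a direct repeat of a receptor half-site with a spacer of 5 bases, which is shown here because these genes serve as readouts of retinoic acid. RefSeq promoter windows (GRCh38.p14, 250 bases before and 50 after a start) were found for 8 of the 9 genes, 21 windows in all. The element, searched by its name's pattern on both strands, was present in 1 window of RARB and 1 of CYP26A1 and in 0.0883% of all 35116 windows. The RARB stretch, chr3:25428204-25428233 on the plus strand, lies upstream of the RefSeq start at 25428263 and inside the 5′ untranslated exon of other RARB transcripts in GENCODE. The CYP26A1 stretch, chr10:93073797-93073826 on the plus strand, lies in the 5′ untranslated exon of ENST00000371531 and upstream of a second RefSeq start. Capitals mark the whole element, 5′ to 3′ on the strand of the gene; in CYP26A1 it runs on the opposite strand.
RARB: gggtagGGTTCACCGAAAGTTCActcgcat
CYP26A1: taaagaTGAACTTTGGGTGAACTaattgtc
DHRS3 is the gene of the 9 that passed the test at 1 µM PCB 126 under some scalings. It has 3 RefSeq windows, and no DR5 element was found in them. Its RefSeq start furthest upstream lies at base 12618210 of chromosome 1 on the minus strand. The transcript that carried 95.3% of the DHRS3 FPKM, ENST00000616661, starts 479 bases further in within the annotation the authors used. The window chr1:12618181-12618460 is shown from 250 bases before to 30 bases after the RefSeq start because GCGTG, the core that the aryl hydrocarbon receptor binds, lies there on the opposite strand. The core occupies bases 12618201 to 12618205, from base 6 after the start, and is written in capitals as it reads on the strand of the gene. GCGTG was not found in the other DHRS3 windows, and a window of RARB also held it, on both strands. It was present on either strand of 36.5% of all windows.
DHRS3: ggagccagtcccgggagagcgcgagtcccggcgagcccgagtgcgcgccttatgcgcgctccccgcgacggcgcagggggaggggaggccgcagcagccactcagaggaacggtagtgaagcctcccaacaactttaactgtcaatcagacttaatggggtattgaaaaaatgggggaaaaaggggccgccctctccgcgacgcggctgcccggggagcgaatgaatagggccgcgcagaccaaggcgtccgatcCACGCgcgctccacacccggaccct

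The 9 genes fell into 3 ranges of expression. DHRS3 (23.4 ± 4.42 FPKM, SD, n = 5 control libraries) and RDH10 (24.4 ± 4.78) were abundant. RDH16 (1.57 ± 0.804), CYP26B1 (1.24 ± 0.406), LRAT (0.822 ± 0.401), RARB (0.681 ± 0.222) and DHRS9 (0.664 ± 0.323) were low but above 0 in all 40 libraries. CYP26A1 and STRA6 were listed at 0 in most libraries. The test across all genes kept those with a variance of FPKM above 1, which only DHRS3 and RDH10 passed. For the other 7 genes the fit without that filter is given, together with an exact permutation test of each gene and group. None of the 9 genes passed the adjusted threshold of 0.05 in any comparison in either fit by limma with Benjamini-Hochberg adjustment. At 1 µM PCB 126, where 1.87% of all genes passed with the filter and 0.588% without it, 3 of the 8 tested without it (DHRS3, CYP26B1 and RDH16) had an unadjusted p under 0.05. Without the filter 0.0377% of all genes passed at 10 nM, 0.31% across the PCB 126 groups and 0% or 0.00275% in each other comparison. The control and treated libraries of these genes overlapped at every PCB 126 dose. Of the genes past the variance filter 0.164%, 0.513% and 2.35% did not overlap from 100 pM to 1 µM.

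DHRS3, the reductase that turns retinal back into retinol, was highest in the PCB 126 libraries. In the control libraries it measured 25.9, 26.9, 24.3, 23.9 and 15.8 FPKM. At 100 pM it measured 27.0, 29.1, 26.5, 33.5 and 29.05 FPKM. At 10 nM it measured 37.9, 33.2, 14.4, 33.3 and 25.7 FPKM. The control and 100 pM groups overlapped only because 1 treated library lay under the highest control library, and the low values in the control and 10 nM groups came from libraries with many multiply aligned read pairs. At 1 µM it measured 32.8, 41.0, 43.5, 39.3 and 25.6 FPKM, with 4 of 5 libraries above every control library. The mean at 1 µM was 36.4 ± 7.22 FPKM (SD, n = 5), 1.56 times the control mean.

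The difference of DHRS3 at 1 µM was 0.62 on the log2(FPKM + 1) scale (SE 0.25), a scale that understates the change of low genes, with an adjusted p of 0.258 by limma with Benjamini-Hochberg adjustment. It did not pass the threshold of 0.05, which 182 of the 9755 genes (1.87%) passed at this dose, 63 of them higher (0.646%) and 119 lower (1.22%). The median gene stood at -0.26 in the same comparison. The 2-sided exact permutation test gave p = 0.0238 at 1 µM, 0.397 at 10 nM and 0.0159 at 100 pM, unadjusted, where the smallest value that 5 against 5 libraries allow is 0.00794. The differences at 100 pM and 10 nM were 0.32 (SE 0.25) and 0.25 (SE 0.25), and limma with Benjamini-Hochberg adjustment gave adjusted p = 1 and 0.865. At 100 pM 0% of the genes passed, where 116 had an unadjusted p under 0.05, and at 10 nM 0.205% did. None of the 9755 genes passed by limma or by an ordinary linear model between 10 nM and 100 pM (558 with an unadjusted p under 0.05) or between 1 µM and 10 nM (324), and DHRS3 differed there by -0.07 and 0.37 (SE 0.25 for each). Across the 4 groups 1.39% of the genes passed, and DHRS3 had an adjusted p of 0.737.

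**Figure D1:**
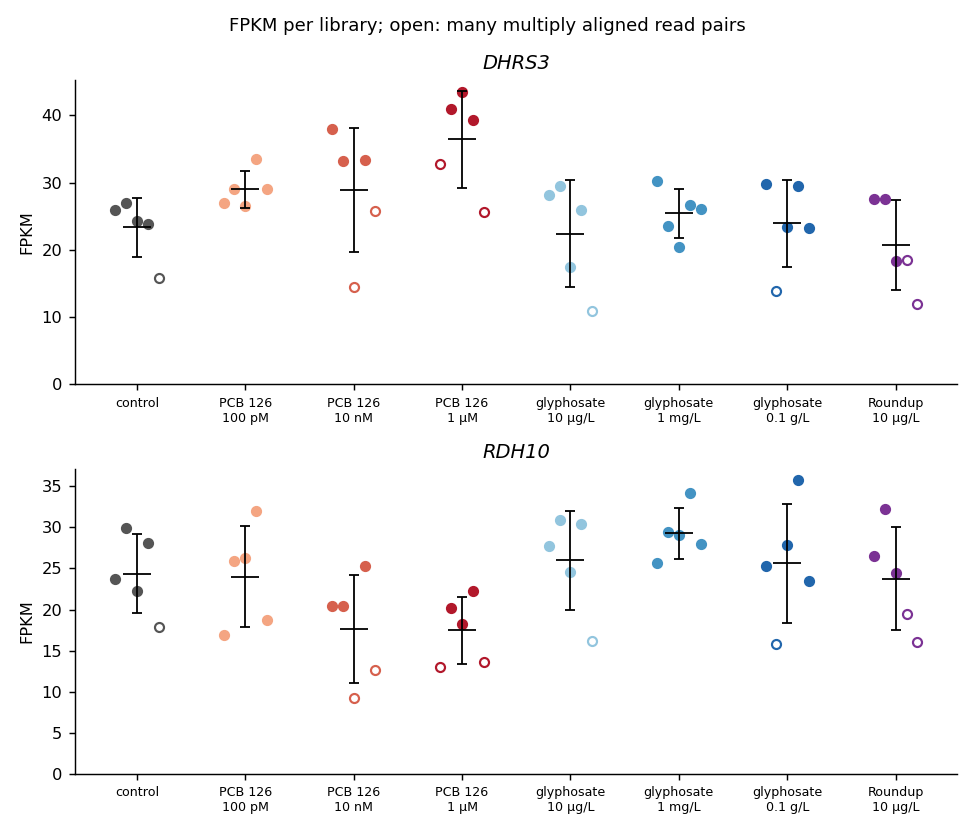
FPKM of DHRS3 and RDH10 in each of the 40 libraries (vertical axis) by treatment group (horizontal axis); bars are mean and SD of 5 libraries, and open circles are the 9 libraries with more than 30% multiply aligned read pairs. Most open circles lie toward the lower end of their groups, DHRS3 reached 43.5 FPKM at 1 µM PCB 126, and each treated group of RDH10 overlapped the control group.

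The call for DHRS3 depended on how libraries were made comparable. With each library scaled to the same 75th percentile, the control values were 20.75, 20.35, 20.9, 22.8 and 23.6 FPKM. The scaled values at 100 pM were 26.7, 23.5, 21.8, 26.5 and 31.2 FPKM, which still overlapped the control group. The scaled values at 10 nM were 32.7, 30.8, 25.9, 26.8 and 34.1 FPKM, all above the control group; 4.57% of the genes tested did not overlap their control group in one direction or the other. The scaled values at 1 µM were 51.3, 37.4, 39.5, 34.7 and 35.1 FPKM, again all above the control group, where 11.1% of the genes did not overlap. On this scale DHRS3 differed by 0.83 (SE 0.12) at 1 µM and passed the threshold by limma with Benjamini-Hochberg adjustment (adjusted p = 0.000126), as did 11.3% of all genes. It also passed after quantile normalization (0.82, adjusted p = 5.6e-05, with 11.1% of all genes) and with a library-size term in an ordinary linear model (0.83, adjusted p = 0.00158, with 8.44%). Quantile normalization was the only setting in which DHRS3 also passed at 10 nM (0.44, adjusted p = 0.0384, with 1.89% of all genes).

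Without the 9 libraries with many multiply aligned read pairs, and with no scaling, DHRS3 measured 25.3 ± 1.41 FPKM in 4 control libraries, 34.8 ± 2.71 in 3 at 10 nM and 41.3 ± 2.10 in 3 at 1 µM. These 3 groups did not overlap, and 6.76% of the genes at 10 nM and 18.5% at 1 µM did not overlap control. The 5 libraries at 100 pM, none of which was left out, measured 29.0 ± 2.76 FPKM. They ranged from 26.5 to 33.5 FPKM and overlapped both the kept control libraries (highest 26.9) and those at 10 nM (lowest 33.2). The difference at 1 µM was 0.69 (SE 0.11) and passed by limma with Benjamini-Hochberg adjustment (adjusted p = 0.00245, with 6.34% of 8298 genes passing). The direction was the same, higher at 1 µM, in all 56 alternatives computed for this comparison, with values between 0.49 and 0.97. With the variance filter and any single library left out, it did not pass (adjusted p from 0.131 to 0.388).

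**Figure D2:**
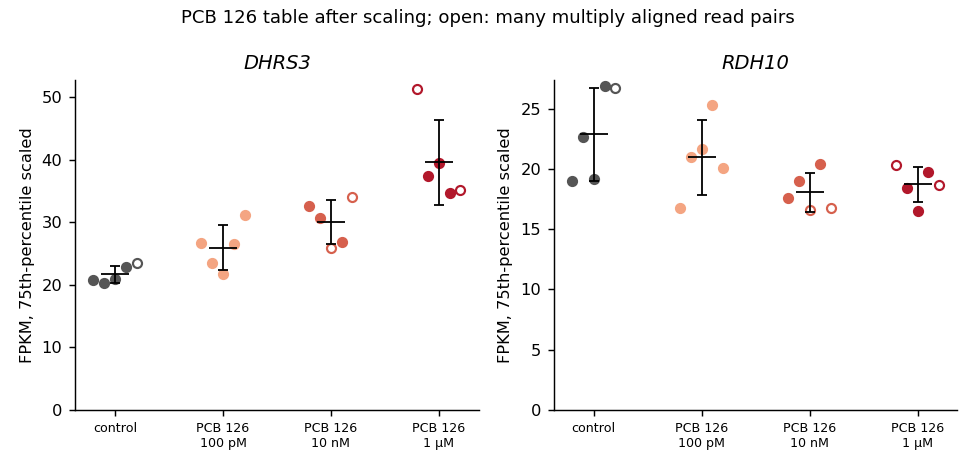
FPKM of DHRS3 and RDH10 after scaling each library to the same 75th percentile (vertical axis), in the 4 groups of the PCB 126 table; bars are mean and SD of 5 libraries and open circles the libraries with many multiply aligned read pairs. DHRS3 had scaled means of 21.7, 25.9, 30.1 and 39.6 FPKM from control to 1 µM, and RDH10 of 22.9, 21.0, 18.04 and 18.7 FPKM.

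**Figure D3:**
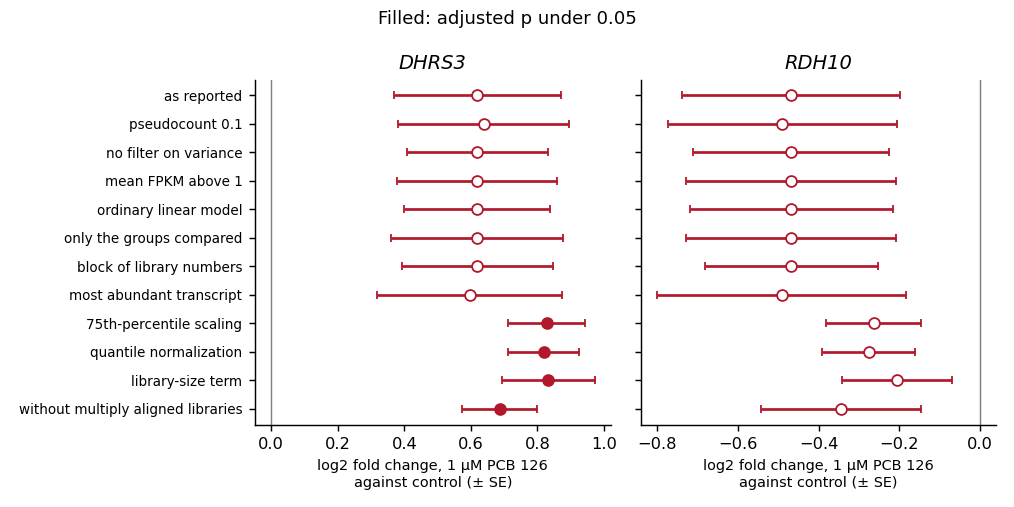
Difference of DHRS3 and RDH10 between 1 µM PCB 126 and control (horizontal axis, log2 fold change with SE) under 12 ways of processing (vertical axis); filled circles have an adjusted p under 0.05. DHRS3 lay between 0.60 and 0.83 and was filled in 4 of the 12, and RDH10 was below 0 and open in all 12.

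In the herbicide libraries DHRS3 stayed near the control level. The means were 22.4 ± 7.94 FPKM at 10 µg/L glyphosate, 25.4 ± 3.65 at 1 mg/L, 23.9 ± 6.46 at 0.1 g/L and 20.8 ± 6.69 with Roundup (SD, n = 5 each). Its differences from control ran from -0.20 to 0.13 on the log2 scale (SE 0.27), and the exact permutation tests gave p from 0.444 to 0.984. Ordered by mean over the 8 groups, DHRS3 was highest at 1 µM PCB 126, then at 100 pM, 10 nM, 1 mg/L glyphosate, 0.1 g/L glyphosate, control, 10 µg/L glyphosate and Roundup. After the first step of that order, no 2 neighbours were further apart than the SD of either group.

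RDH10, which carries out the first oxidation of retinol to retinal, was as abundant as DHRS3 but did not share its pattern. The control libraries measured 23.7, 29.9, 22.3, 28.1 and 17.9 FPKM. The libraries at 100 pM measured 16.9, 25.9, 26.3, 32.0 and 18.7 FPKM. At 10 nM the values were 20.4, 20.4, 9.21, 25.3 and 12.6 FPKM. At 1 µM they were 13.0, 20.1, 18.2, 22.3 and 13.6 FPKM. Most libraries at the upper doses were under the control median, and the groups overlapped at every dose. The differences from control were -0.04 at 100 pM, -0.51 at 10 nM and -0.47 at 1 µM (SE 0.27 for each), with adjusted p = 1, 0.865 and 0.448 by limma with Benjamini-Hochberg adjustment. The exact permutation test gave p = 0.873, 0.111 and 0.0635, unadjusted.

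Scaled to the 75th percentile, the difference of RDH10 at 1 µM shrank to -0.26 (SE 0.12, adjusted p = 0.162 by limma with Benjamini-Hochberg adjustment), where the median gene was at -0.08. At 10 nM the scaled difference was -0.31 (SE 0.12), with p = 0.0317 by the exact permutation test, unadjusted, where 7 of the 63 scaled tests were under 0.05. RDH10 did not pass at 10 nM in any of 56 alternatives. The adjusted p was at least 0.25 there, in limma with Benjamini-Hochberg adjustment and the other models run. In the herbicide groups RDH10 averaged 25.98 ± 6.00 FPKM at 10 µg/L glyphosate, 29.3 ± 3.08 at 1 mg/L, 25.6 ± 7.23 at 0.1 g/L and 23.7 ± 6.29 with Roundup (SD, n = 5 each). No step in the order of its 8 group means was larger than the SD of both neighbours. The transcript ENST00000240285 carried 91.0% of the RDH10 signal. Over all 40 libraries and 9732 genes, the genes whose log2(FPKM + 1) was most like that of RDH10 were ITGA6 (Pearson's r = 0.96), TMEM205 (0.95) and CCND1 (0.94). The points share the library sums, which were low in 9 of the 40, and DHRS3 had r = 0.32 with RDH10.

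RDH16, a retinol dehydrogenase of the liver, was lowest at 1 µM PCB 126. It measured 0.259, 1.64, 2.18, 2.27 and 1.52 FPKM in the control libraries. At 100 pM the values were 1.42, 1.23, 2.12, 2.49 and 2.15 FPKM. At 10 nM they were 0.399, 0.662, 0.898, 2.61 and 0.160 FPKM. At 1 µM they were 0.167, 0.213, 0.494, 0.451 and 0.345 FPKM, under 4 of the 5 control libraries in every case, and control replicate 1 was as low as the treated libraries. The mean at 1 µM was 0.334 ± 0.143 FPKM (SD, n = 5), and the control mean was 4.71 times as high. The difference was -0.88 (SE 0.27), with an adjusted p of 0.217 by limma with Benjamini-Hochberg adjustment in the fit without the variance filter, where 0.588% of 34522 genes passed. The exact permutation test gave p = 0.0317, unadjusted.

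RDH16 did not pass in any of the 26 alternatives for that comparison, and its adjusted p ranged from 0.054 to 0.428 in limma with Benjamini-Hochberg adjustment and the other models run. Over the 40 libraries ENST00000398138 carried 93.3% of the RDH16 signal, but less of it at 1 µM. There it averaged 0.137 ± 0.132 FPKM, against 1.57 ± 0.804 in control, and ENST00000360752, with no coding sequence defined in GENCODE, averaged 0.197 ± 0.184 FPKM, against 0 in every control library (SD, n = 5 each). ENST00000360752 was not particular to 1 µM, as it averaged 0.355 ± 0.488 FPKM with Roundup and 0.152 ± 0.184 at 10 nM. Its means were 0.0863 and 0.0536 FPKM at 10 µg/L and 0.1 g/L glyphosate, and 0 at 100 pM and 1 mg/L. The split depends on how StringTie shared reads between these overlapping transcripts. In the herbicide groups RDH16 averaged between 1.82 and 2.09 FPKM, within the control spread.

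CYP26B1, which inactivates retinoic acid, was also lowest at 1 µM PCB 126. It measured 1.17, 1.33, 1.57, 1.56 and 0.580 FPKM in the control libraries. At 100 pM it measured 1.48, 1.24, 1.41, 1.74 and 1.04 FPKM. At 10 nM it measured 0.906, 0.798, 0.425, 1.55 and 0.708 FPKM. At 1 µM it measured 0.662, 0.728, 0.826, 0.456 and 0.497 FPKM, under 4 of the 5 control libraries, and the fifth control library, replicate 5, is one with many multiply aligned read pairs. The difference at 1 µM was -0.44 (SE 0.14), with an adjusted p of 0.260 by limma with Benjamini-Hochberg adjustment without the variance filter, and the exact permutation test gave p = 0.0317, unadjusted. Without control replicate 5 it passed in that fit, with a difference of -0.56 (adjusted p = 0.0436). The 1 µM libraries with many multiply aligned read pairs, replicates 1 and 5, were kept there. CYP26B1 passed in 1 of the 26 alternatives for this comparison, this one, and not with all 9 such libraries left out. Its adjusted p ranged up to 0.492 in limma with Benjamini-Hochberg adjustment and the other models run. With all libraries kept, 0.588% of 34522 genes passed without the variance filter.

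Over the 40 libraries the CYP26B1 signal was divided between ENST00000001146 (62.2%) and the short ENST00000461519 (34.9%), so that the sum depends on how StringTie shared reads between overlapping transcripts. At 1 mg/L and 0.1 g/L glyphosate CYP26B1 averaged 1.75 ± 0.356 and 1.78 ± 0.749 FPKM against 1.24 ± 0.406 in control (SD, n = 5 each). The exact permutation tests gave p = 0.0635 and 0.246, and the groups overlapped. The short transcript averaged 0.741 ± 0.398 FPKM at 1 mg/L and 0.845 ± 0.588 at 0.1 g/L, against 0.297 ± 0.374 in control, and ENST00000001146 averaged 0.998 ± 0.0968 and 0.676 ± 0.453, against 0.941 ± 0.319, so the higher sums lay mainly in the short transcript.

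DHRS9, a dehydrogenase that also uses retinol, averaged 0.664 ± 0.323 FPKM in control, 1.02 ± 0.366 at 100 pM, 0.678 ± 0.291 at 10 nM and 0.550 ± 0.276 at 1 µM PCB 126 (SD, n = 5 each). Its difference was 0.28 (SE 0.16) at 100 pM and -0.10 (SE 0.16) at 1 µM, with adjusted p = 1 and 0.875 by limma with Benjamini-Hochberg adjustment. The herbicide groups averaged between 0.716 and 0.757 FPKM.

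RARB, the retinoic acid receptor that is itself a target of retinoic acid, averaged 0.681 ± 0.222 FPKM in control and 0.813 ± 0.447 at 1 µM PCB 126 (SD, n = 5 each). At 1 µM its libraries measured 0.199, 1.08, 1.26, 1.04 and 0.491 FPKM, where the lowest and the second lowest values came from the 2 libraries with many multiply aligned read pairs. The difference was 0.08 (SE 0.17), with an adjusted p of 0.908 by limma with Benjamini-Hochberg adjustment. Without the 9 such libraries RARB differed by 0.22 at 10 nM and 0.27 at 1 µM. The exact permutation test gave p = 0.0286 for each, unadjusted, the smallest that 3 against 4 libraries allow. Without these libraries 6.76% of the genes past the variance filter did not overlap control at 10 nM, and 18.5% at 1 µM. RARB did not pass that filter. Of the 63 exact tests in this setting, 7 were under 0.05. The adjusted p of RARB at 1 µM was at least 0.245 in limma with Benjamini-Hochberg adjustment and the other models run. The transcript ENST00000330688, which starts at base 25428311 and so downstream of the DR5 element printed above, carried 79.1% of its signal. The herbicide groups averaged between 0.613 and 0.807 FPKM.

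LRAT, which esterifies retinol for storage, was low in every group, and its storage role in liver belongs mainly to stellate cells. It averaged 0.822 ± 0.401 FPKM in control, 0.910 ± 0.307 at 100 pM, 0.640 ± 0.314 at 10 nM and 0.628 ± 0.338 at 1 µM PCB 126 (SD, n = 5 each). The control libraries measured 0.872, 1.08, 0.873, 1.15 and 0.138 FPKM. At 1 mg/L glyphosate they measured 1.15, 1.19, 1.82, 1.99 and 1.16 FPKM, just above the control group (lowest 1.152 against highest 1.148). With all libraries kept and no scaling, that is the only one of the 63 pairs of a gene and a treated group without overlap. Of the 9533 genes past the variance filter, which LRAT did not pass, 0.178% did not overlap at this dose. The shares were 0.0524%, 0.0839% and 0.042% at 10 µg/L, at 0.1 g/L and with Roundup. The exact permutation test gave p = 0.00794, the smallest it can give, unadjusted over 63 tests of which 5 were under 0.05. The difference was 0.45 (SE 0.24), with an adjusted p of 1 by limma with Benjamini-Hochberg adjustment without the variance filter. Without control replicate 5, the control library with many multiply aligned read pairs, the difference was 0.29 and the exact permutation test gave p = 0.0556.

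The LRAT signal was spread over 8 transcripts. Those that GENCODE lists as protein coding held 32.1% of it, and ENST00000336356 alone held 2.54%. The largest share, 25.9%, was that of ENST00000499392, for which no coding sequence is defined. LRAT values are therefore uncertain as a measure of the mRNA for the enzyme.

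**Figure D4:**
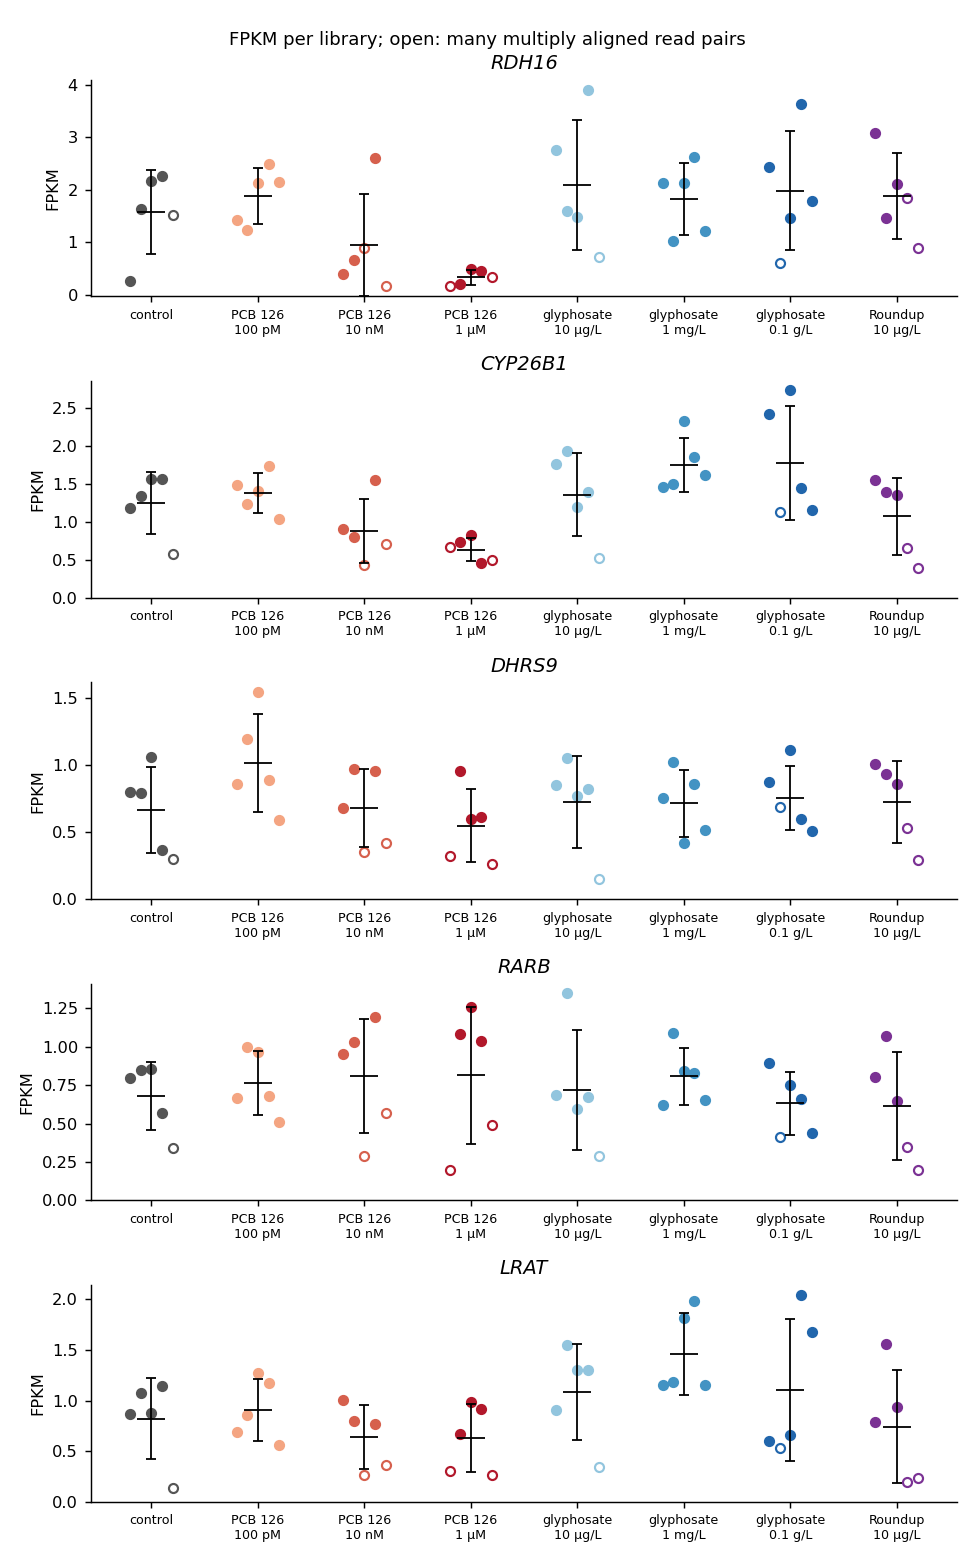
FPKM of RDH16, CYP26B1, DHRS9, RARB and LRAT in each of the 40 libraries (vertical axis, own scale per gene) by treatment group; bars are mean and SD of 5 libraries and open circles the 9 libraries with many multiply aligned read pairs. RDH16 and CYP26B1 were lowest at 1 µM PCB 126, with means of 0.334 and 0.634 FPKM, and open circles lie at the low end of most groups.

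CYP26A1, the other enzyme that removes retinoic acid, was above 0 in 14 of the 40 libraries and at most 0.0960 FPKM. It was above 0 in 1 control library, in 3, 1 and 1 libraries from 100 pM to 1 µM PCB 126, in 2, 2 and 3 libraries from the lowest to the highest glyphosate dose and in 1 Roundup library. STRA6, the cell-surface receptor that takes up retinol from its carrier, was above 0 in 6 of the 40 libraries and at most 0.0346 FPKM. All 5 control libraries had it at 0, and it was above 0 in 1 library at 1 µM PCB 126, 2 at 0.1 g/L glyphosate and 3 of Roundup. At these levels no difference between groups was detectable for either gene.

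Over all transcripts the FPKM sums had a median of 299809 in the 9 libraries with many multiply aligned read pairs and 443868 in the others. These 9 libraries also had lower medians for each of the 7 detected genes. The share of all genes that were lower in these libraries is not given. The median of DHRS3 was 15.8 FPKM in them and 27.5 in the other 31, that of RDH10 15.8 and 25.9, and that of LRAT 0.267 and 1.01. For RARB the medians were 0.342 and 0.830 FPKM, for DHRS9 0.320 and 0.860, for CYP26B1 0.580 and 1.44, and for RDH16 0.727 and 1.79. No such library was in the 100 pM or 1 mg/L glyphosate groups, and 2 of 5 were in the 10 nM, 1 µM and Roundup groups. Their part in differences between groups was not tested beyond leaving them out.

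None of the 9533 genes tested in the herbicide table passed by limma with Benjamini-Hochberg adjustment in any glyphosate or Roundup comparison (0% each), where 84 to 165 genes had an unadjusted p under 0.05. An ordinary linear model also gave 0. At the matched nominal dose of 10 µg/L, Roundup differed from glyphosate by -0.08 (SE 0.27) for DHRS3 and by -0.13 (SE 0.23) for RDH10, with an adjusted p of 0.974 for each by limma with Benjamini-Hochberg adjustment.

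The wider retinoid pathway was read from 46 further genes in 7 lists, of which 28 passed the variance filter in the PCB 126 table. At 1 µM 1 of the 28 rose and 3 fell by limma with Benjamini-Hochberg adjustment, beside 1.87% of all genes. Their median difference was -0.42, against -0.26 for all genes tested. ALDH1A3, which oxidizes retinal to retinoic acid, was the gene that rose. It measured 0.734, 1.11, 0.738, 0.406 and 0.189 FPKM in the control libraries and 4.88, 7.71, 7.78, 7.71 and 4.34 FPKM at 1 µM. All treated libraries were above all control libraries, where 2.35% of the genes tested did not overlap in one direction or the other. The difference was 2.19 (SE 0.27, adjusted p = 2.29e-05 by limma with Benjamini-Hochberg adjustment). At 10 nM ALDH1A3 had also risen, by 1.77 (SE 0.27, adjusted p = 0.00127 by limma with Benjamini-Hochberg adjustment). No other gene of the 28 passed at that dose, where 0.205% of all genes passed.

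The genes that fell were HSD17B6, TTR and CYP2C8. HSD17B6, an oxidoreductase of steroids and retinoids, measured 19.6, 38.2, 17.4, 40.1 and 26.9 FPKM in control and was listed at 0, 6.21, 6.13, 10.4 and 6.54 FPKM at 1 µM, a difference of -2.38 (SE 0.47). TTR, which carries the retinol-binding protein in blood, measured 250.8, 411.5, 423.0, 436.1 and 285.7 FPKM in control and 61.0, 122.9, 143.8, 172.3 and 102.2 FPKM at 1 µM, a difference of -1.62 (SE 0.34). CYP2C8, a drug-metabolizing enzyme that can also oxidize retinoic acid, measured 28.7, 32.7, 37.5, 37.4 and 20.3 FPKM in control and 2.79, 10.5, 13.0, 13.7 and 8.77 FPKM at 1 µM, a difference of -1.70 (SE 0.36). In each, every treated library was below every control library, where 2.35% of the genes tested did not overlap in one direction or the other. The adjusted p by limma with Benjamini-Hochberg adjustment was 0.00444, 0.00797 and 0.00937, in that order. The call for HSD17B6 was lost with a pseudocount of 0.1, and that for CYP2C8 without the variance filter. With the most abundant transcript per gene the calls for TTR and CYP2C8 were lost, and that for TTR was also lost without both the filter and the libraries with many multiply aligned read pairs. ALDH1A3 passed in each of these settings.

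By list, 1 of 2 carriers (TTR), 1 of 9 oxidoreductases (HSD17B6) and 2 of 3 genes of retinoic acid synthesis and breakdown (ALDH1A3 and CYP2C8) passed at 1 µM. In this fit none passed of 4 genes of ester synthesis and hydrolysis, 1 of carotenoid cleavage, 4 retinoid receptors and 5 retinoic acid target genes. After 75th-percentile scaling, where 11.3% of all genes passed, 4 more of the listed genes passed by limma with Benjamini-Hochberg adjustment. These were LPL (-0.72, adjusted p = 0.000229), RARA (-0.73, 0.00382), RARRES2 (0.78, 0.026) and RDH5 (-0.41, 0.0314). Without the variance filter and without scaling LPL also passed by limma with that adjustment (adjusted p = 0.0447). None of the 27 genes of these lists tested in the herbicide table passed in any comparison, nor did any have an unadjusted p under 0.05.

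**Figure D5:**
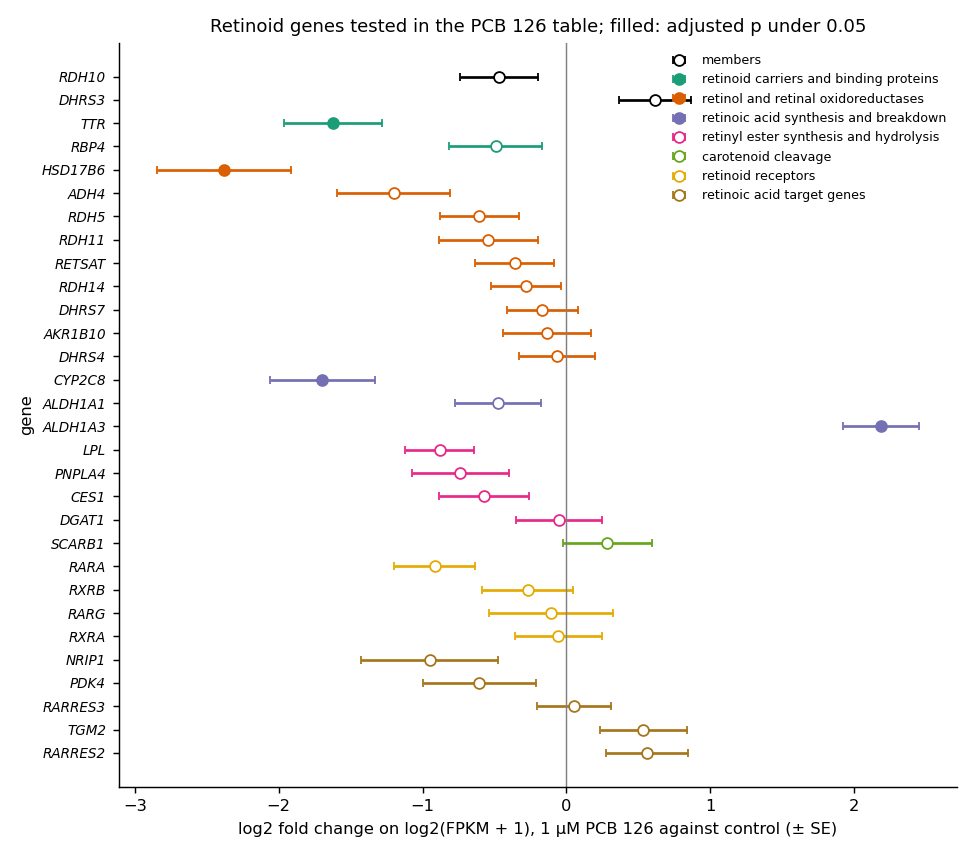
Difference between 1 µM PCB 126 and control (horizontal axis, log2 fold change on log2(FPKM + 1) with SE) for DHRS3, RDH10 and the 28 further retinoid genes tested, coloured by list; filled circles have an adjusted p under 0.05. ALDH1A3 stands at 2.19 and HSD17B6, CYP2C8 and TTR between -2.38 and -1.62.

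Markers of cell types moved in the same comparison. The 6 hepatocyte markers summed to 5371 to 13121 FPKM at 1 µM against 12975 to 18983 in control, and none passed by limma with Benjamini-Hochberg adjustment, the nearest being TF (-1.20, adjusted p = 0.0525) and ALB (-1.08, adjusted p = 0.0564). The 5 biliary markers summed to 121.6 to 215.1 FPKM against 224.0 to 451.6, with none passing, and EPCAM was listed at 0 in every library at 1 µM, as it was at 10 nM and at 0.1 g/L glyphosate, and in 4 of 5 control libraries. The 6 stellate and fibroblast markers summed to 50.8 to 189.8 FPKM against 41.0 to 91.8, while COL3A1 among them fell by 3.07 on the log2 scale (adjusted p = 2.29e-05 by limma with Benjamini-Hochberg adjustment). The 4 endothelial and macrophage markers summed to 0.479 to 3.42 FPKM against 0.345 to 3.91. The part of these shifts in the differences of the retinoid genes was not tested.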

How the data were processed

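Total RNA depleted of ribosomal RNA was sequenced as 75-bp read pairs. The authors aligned the reads with HISAT2 to GRCh38 and estimated transcript abundances with StringTie and Ballgown, using the Ensembl 89 annotation; tool versions were not given in the sources used here. They deposited FPKM for 234960 transcripts, and 1 table of PCB 126 libraries and 1 of herbicide libraries hold identical control values. Columns with a few values below 0 (4 in the PCB 126 table, 6 in the herbicide table) were treated as a deposited score and these values set to 0. FPKM were summed per gene name, genes with a variance of FPKM above 1 were kept (9755 and 9533), and log2(FPKM + 1) was tested with limma 3.58.1 in R 4.3.3, with Benjamini-Hochberg adjustment over all genes tested, in 1 fit per table. Reads per library are not held in the tables, so values carry no counting error, and FPKM divides each library by its own total. Replicates were numbered in accession order, and the numbers coincide with the runs of library numbers that served as a block in an alternative fit. The main fit and the exact permutation tests did not use these runs. The exact permutation tests were 2-sided over 252 splits on log2(FPKM + 1), computed with numpy 2.4.6, and tables were read with pandas 2.3.3 in Python 3.11.15; plots were drawn with matplotlib 3.10.9. The main limma fit was tested on simulated data, for 1 µM PCB 126 against control only. The simulated noise was independent, with no shift between libraries. All 9 genes are named, further retinoid genes where they passed at 1 µM PCB 126, and the 3 genes most like RDH10, the most abundant of the 9 in the control libraries. The 9 genes, the lists of further retinoid and marker genes and the tests were chosen with earlier results of these data known. Alternatives covered pseudocount, filter, scaling, model, block, transcript choice and left-out libraries.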

Additional observations from a re-analysis of the deposited data

Results flagged for a closer look

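In 9 of 67 groups of 5 libraries, the highest or lowest library stood apart from the other 4 by Dixon's criterion. Chance alone meets it in about 1 in 20 groups, but 5 of the 9 are groups with 4 libraries listed at 0, which meet it by construction, so that rate does not apply to them. DHRS3 was at 15.8 FPKM in control replicate 5, against 23.9 to 26.9 in the other control libraries. LRAT was at 0.1385 FPKM in the same library, against 0.872 to 1.15, and DHRS9 was at 0.1465 FPKM in replicate 5 of 10 µg/L glyphosate, against 0.769 to 1.06. Both libraries have many multiply aligned read pairs, whose part in these values was not tested. RDH16 was at 0.259 FPKM in control replicate 1, against 1.52 to 2.27, in a library without that mark. CYP26A1 was above 0 in a single library of 4 groups, at 0.0327 FPKM in control replicate 3, 0.0431 in replicate 1 of 10 nM PCB 126, 0.0274 in replicate 3 of 1 µM and 0.0291 in Roundup replicate 2. STRA6 was likewise above 0 in 1 library of 1 µM PCB 126, replicate 2, at 0.01555 FPKM.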

How the results depend on the processing

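The number of the 9 genes that passed stayed at 0 in 48 of 56 alternatives at 1 µM PCB 126, in 55 of 56 at 10 nM, in 48 of 55 across the PCB 126 groups and in all others run for 100 pM, between doses and for the herbicides. It was 1, DHRS3, at 1 µM and across the groups after 75th-percentile scaling, after quantile normalization (also at 10 nM), with a library-size term and without the libraries with many multiply aligned read pairs, and, in combinations added after seeing the data, without the variance filter together with the first, the second or the last of these. With each library left out in turn it was 0 to 1 at 1 µM, the 1 being CYP26B1 without the filter and without control replicate 5. No direction that had passed reversed. Of the 46 further retinoid genes listed, of which the variance filter kept 28, 4 passed at 1 µM, against 8 after either scaling, 7 with the replicate block, 2 for the most abundant transcript, 7 and 8 without the filter (RBP5, which the filter drops, among them) after 75th-percentile and quantile scaling, and, with a library left out, 4 to 6 with the filter and 1 to 6 without it. All 182 genes passing at 1 µM became 1099 after 75th-percentile scaling (446 higher, 653 lower), 1085 after quantile normalization (532 higher, 553 lower), 823 with a library-size term (448 higher, 375 lower), 526 without the multiply aligned libraries and 357 with the replicate block. The median gene moved from -0.26 to -0.08 with the first scaling and to -0.01 with the second, so directions near 0 are relative to the scaling. The labels give no replicate numbers. Runs of library numbers used as the block correlated by -0.056 to 0.169 (median 0.063) over 30 PCB 126 pairs, with 7 above 0.1. Of the 20 control and PCB 126 libraries 19 were most like their own run, as were 24 of the 25 control and herbicide libraries. These counts cannot show how far runs differ, because deviations from group means were compared, which pushes libraries of the same group apart. Each other run holds a library of the same group and the own run holds none, so the own run was favoured beforehand. With the block, the adjusted p of DHRS3 at 1 µM was 0.158 by limma with Benjamini-Hochberg adjustment. The paper gives a range of reads per sample, but the FPKM values come without read counts per gene. Levels below about 1 FPKM therefore carry a counting error that was not given.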

Other observations

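The assembled locus that holds LRAT on chromosome 4 also holds 19 transcripts with no gene name, which are not counted under LRAT. Their FPKM summed to 327 ± 176 in the control libraries and 183 ± 96.2 at 1 µM PCB 126 (SD, n = 5 each). Most of them start within the span of FGA, which encodes a fibrinogen chain made by hepatocytes, at chr4:154583126-154590742 on the opposite strand in GENCODE.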
